A study of Mus musculus with 6 samples.

Results

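Wnt pathway inhibitors were followed in C3H10T1/2 cells, a mouse line of mesenchymal stem cells. The 10 genes were Sfrp1, Sfrp2, Wif1, Notum, Dkk1, Dkk2, Dkk3, Nkd1, Nkd2 and Axin2. They were chosen by name, with earlier results of these data known. Their mouse symbols were matched to the Ensembl identifiers of the count table, so they are 10 of 55401 listed genes, of which 29043 had at least 1 count. All 10 were found, and 9 had at least 1 count.

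Wnt ligands are secreted proteins that bind Frizzled receptors and Lrp5 or Lrp6 at the cell surface, which keeps β-catenin from being degraded and lets it act with TCF/LEF factors in the nucleus. Inhibitors work at several levels of this route. Some bind the ligand outside the cell, some block the co-receptor, and some act inside the cell on Dishevelled or on the complex that degrades β-catenin. In mesenchymal cells the pathway is known for favouring bone over fat formation.

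RNA was sequenced from 3 derivatives of the line, each at 2 times, with 1 library per condition and 6 in all. The shControl cells, labelled wild type, carried a control hairpin, the shNFIB cells a hairpin against Nfib (a transcription factor gene of the nuclear factor I family), and the shMLL1 cells a hairpin against Kmt2a (the gene of the histone methyltransferase MLL1). At day 0 the cells were untreated, and at day 7 they had been kept in osteogenic medium with dexamethasone (0.1 μM), β-glycerophosphate (20 mM) and ascorbic acid 2-phosphate (100 μg/ml). The hairpin against Nfib targets a 3′ UTR shared by its isoforms, and whether each derivative is a clone or a pool is not given in the sources used here.

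Total counts were lowest, at 21608680, in the day 7 library of shMLL1 and highest, at 34774066, in the day 0 library of shNFIB. The hairpin targets were lower where labelled: the level of Nfib in CPM (counts per 1000000) was 116 at day 0 and 83.5 at day 7 for shControl, against 35.3 and 8.15 for shNFIB. Kmt2a had 74.7 and 66.3 CPM in shControl against 30.9 and 34.8 in shMLL1. In shMLL1, Nfib was at 65.5 CPM at day 0 and 72.7 at day 7. All 10 mesenchymal markers were above 3 counts in every library, while Epcam of epithelium was at 0 throughout and Ptprc of blood cells had at most 3 counts. Cdh1, the epithelial cadherin, was nevertheless at 8.95 CPM in shControl at day 0. Cd68 of macrophages was at 1.20 to 7.58 CPM over the 6 libraries. Lyz2 and Pecam1 of the same list had at most 14 and 19 counts. Of the adipocyte markers, Adipoq had at most 1 count, while Lpl, Cidec and Plin1 had 1084, 681 and 472 counts in shControl at day 7.

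CPM here are counts scaled by trimmed mean of M-values (TMM) factors over the 6 libraries. A ratio between 2 libraries is given with an exact Clopper-Pearson 95% interval, which covers counting error only, since no condition had a second library. A count of 0 allows up to 3 counts, or 0.0939 to 0.123 CPM depending on the library. Ratios against a library at 0 are bounds from that limit. They take the other count as exact, so its counting error is left out. No ratio is given where both libraries had 3 counts or fewer. A gene is called past 2-fold where 1 of the libraries had at least 10 counts. Tests across lines or days used edgeR's quasi-likelihood fit over the 6 libraries, adjusted by Benjamini-Hochberg over 16742 genes. In bulk RNA, fewer cells expressing a gene and less RNA per cell cannot be told apart.

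Sfrp1 had the highest level per kilobase in 5 of the 6 libraries, and in shControl at day 0 Sfrp2 was above it (9.92 against 8.89 CPM per kilobase). Per kilobase of exon, the mean level over the 6 libraries was 7.49 CPM for Sfrp1 (range 6.04 to 8.89) and 2.13 for Sfrp2 (0 to 9.92). Notum followed at 1.19 CPM per kilobase (0.55 to 1.91) and Dkk3 at 0.349 (0.178 to 0.698). Each gene's range over the libraries overlapped that of the next in this order. Within libraries, Notum was above Dkk3 in 6 of 6 and Dkk3 above Nkd1 in 5 of 6, while Sfrp2 was above Notum in 2 of 6, both of them shControl. Nkd1, Axin2, Dkk2, Nkd2 and Wif1 had means between 0.128 and 0.00683 CPM per kilobase, and Dkk1 had none.

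**Figure D1:**
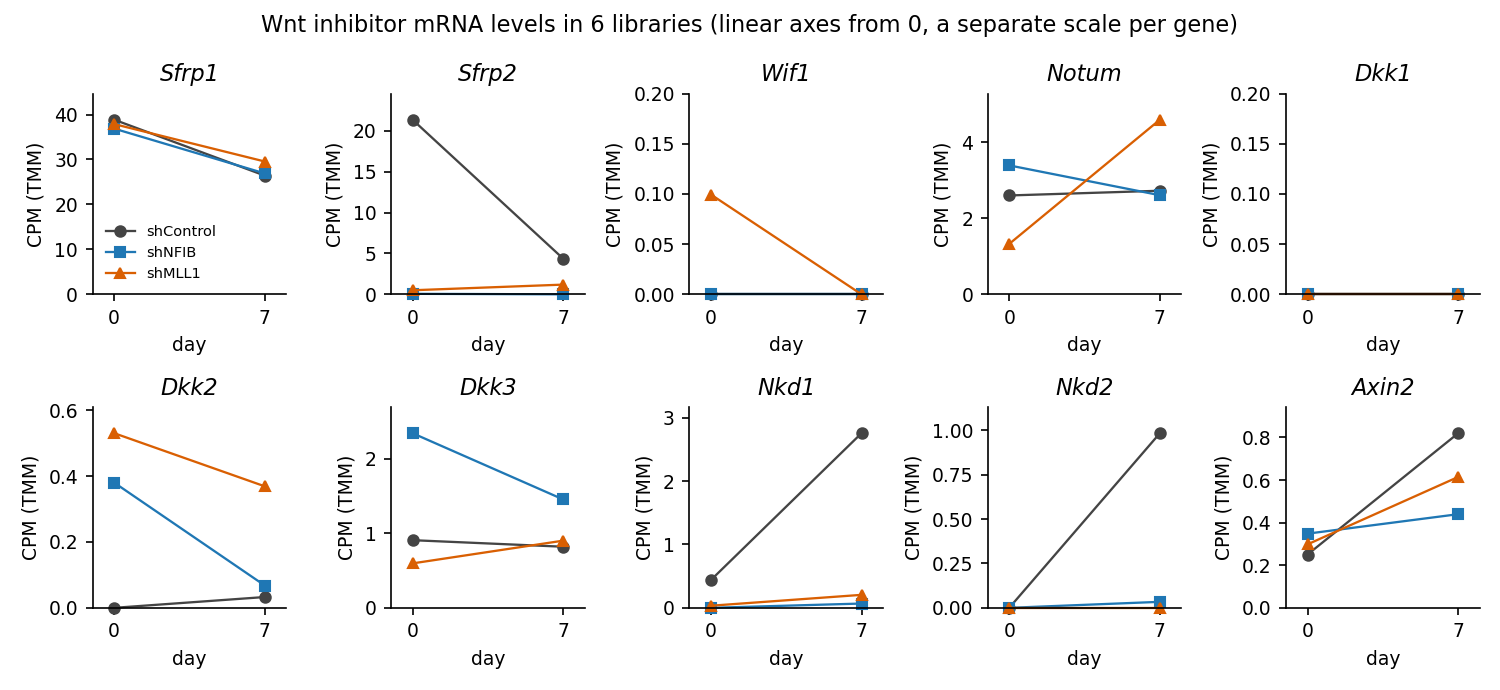
Level of each of the 10 genes in CPM (linear vertical axis from 0, a separate scale per gene) at day 0 and day 7 in shControl, shNFIB and shMLL1, 1 library per point. Sfrp1 runs together in the 3 lines, Sfrp2 is high in shControl at day 0 (21.4 CPM), and Nkd1 and Nkd2 are high in shControl at day 7 (2.76 and 0.984 CPM).

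Sfrp2 (ENSMUSG00000027996) encodes a secreted Frizzled-related protein that binds Wnt ligands, and lies on the plus strand of chromosome 3 from 83766321 to 83774316 (GRCm38). The shControl libraries held 682 counts at day 0 and 133 at day 7, those of shNFIB 2 and 0, and those of shMLL1 15 and 29. Both shControl libraries were above all 4 knockdown libraries, with no overlap. In CPM these were 21.4 and 4.36, then 0.0633 and 0, then 0.497 and 1.19.

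Against shControl at day 0, Sfrp2 in shNFIB differed by a log2 ratio of -8.40 (interval -11.45 to -6.54). At day 7, with the shNFIB count set to the limit of 3, it was 43.0-fold lower. In shMLL1 the log2 ratio was -5.42 (-6.27 to -4.69) at day 0 and -1.88 (-2.51 to -1.29) at day 7. Over both days, Sfrp2 was lower in shNFIB, with a fitted log2 fold change of -8.35 (SE 1.18, adjusted p = 0.0443, edgeR). The days of a derivative served as its replicates in this fit, so the p-value cannot tell the hairpin from the derivative that carried it. The shMLL1 value was -3.50 (SE 0.88, adjusted p = 0.233, edgeR), which did not pass. It ran from -1.83 without the shMLL1 library of day 0 to -5.38 without that of day 7, and passed in the latter (adjusted p = 0.00106), while without shControl it was -2.15 (day 0 left out) and -5.03 (day 7 left out).

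Sfrp2 moved with time in opposite directions in 2 of the lines. It was 4.89-fold lower at day 7 in shControl (log2 ratio -2.29, interval -2.57 to -2.02) and 2.39-fold higher in shMLL1 (log2 ratio 1.26, 0.31 to 2.26). The day effect over the 3 lines was -0.94 (SE 0.82, adjusted p = 0.397, edgeR). Without either shControl library it turned positive (0.54 and 0.62), and without either shMLL1 library it was -2.36 and -2.35 and passed. An antisense gene, Gm26771, shares 347 exon bases with Sfrp2 and had at most 7 counts. The strand setting of the counting is not given in the sources used here.

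The 250 bases before the RefSeq start of Sfrp2 (chr3:83766071-83766320, plus strand, RefSeq, GRCm38.p6) are shown because Sfrp2 is the member that passed the test in the line with the hairpin against a nuclear factor I gene. Capitals mark matches to TTGGC, the short nuclear factor I motif, on either strand.
Sfrp2: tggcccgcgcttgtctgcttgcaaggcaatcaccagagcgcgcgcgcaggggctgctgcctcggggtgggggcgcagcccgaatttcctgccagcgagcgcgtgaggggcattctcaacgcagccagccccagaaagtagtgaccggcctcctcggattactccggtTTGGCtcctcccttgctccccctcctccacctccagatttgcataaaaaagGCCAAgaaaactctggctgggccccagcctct
The matches began at positions -83 and -32 from the start.

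Sfrp1 (ENSMUSG00000031548, chromosome 8, 23411502 to 23449632, plus strand) encodes a related secreted protein of the same family. At day 0 its counts were 1241 in shControl, 1164 in shNFIB and 1143 in shMLL1, and at day 7 they were 805, 795 and 721. The 3 day 0 libraries (36.9 to 38.8 CPM) were above the 3 day 7 libraries (26.4 to 29.5 CPM), and at each time the 3 lines were within those ranges. The log2 ratio of day 7 to day 0 was -0.56 in shControl (interval -0.69 to -0.43), -0.45 in shNFIB (-0.59 to -0.32) and -0.36 in shMLL1 (-0.49 to -0.22). The fitted day effect of -0.47 (SE 0.18, adjusted p = 0.0818, edgeR) did not pass. Between shNFIB and shControl the fitted difference was -0.06 (SE 0.22, adjusted p = 0.938), and between shMLL1 and shControl 0.10 (SE 0.22, adjusted p = 0.938), both from edgeR.

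In the summed level of the 10 genes, shControl at day 0 was the highest library. At day 0 it was 64.4 CPM in shControl, 43.4 in shNFIB and 41.3 in shMLL1, and at day 7 it was 38.9, 31.6 and 37.4. Sfrp2 made up 33.2% of the members' counts in shControl at day 0 (Clopper-Pearson interval 31.1% to 35.2%) and 11.2% at day 7 (9.47% to 13.1%). Its share was 0.146% in shNFIB at day 0 (0.0177% to 0.526%), and at day 7 its count of 0 allows up to 0.322%. In shMLL1 it was 1.20% (0.676% to 1.98%) and 3.18% (2.14% to 4.53%).

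**Figure D2:**
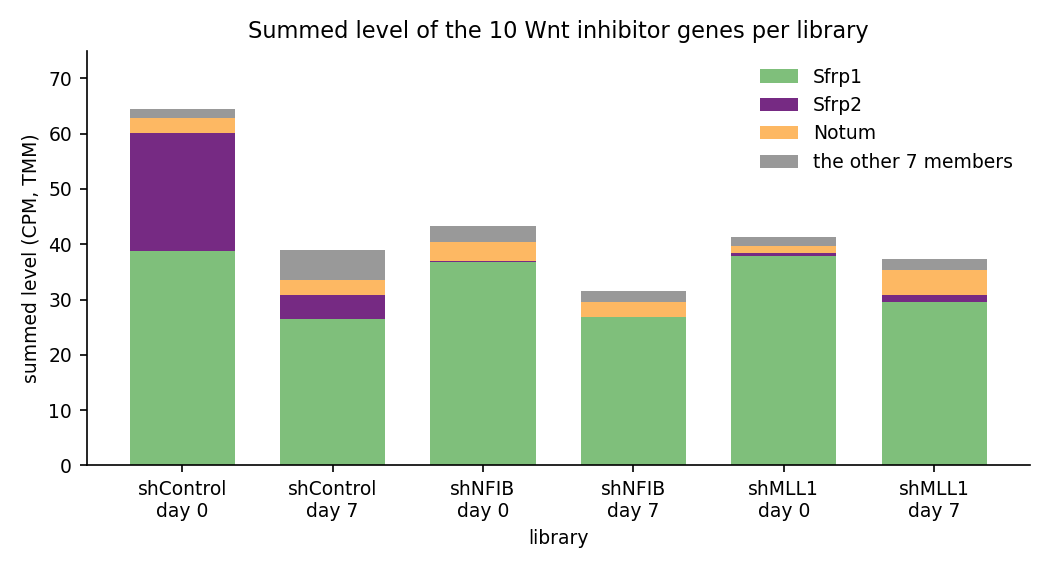
Stacked bars of the summed level of the 10 genes in CPM for each of the 6 libraries, split into Sfrp1, Sfrp2, Notum and the other 7. The Sfrp1 segment is between 26.4 and 38.8 CPM in all bars, and the Sfrp2 segment is visible mainly in shControl, at 21.4 CPM on day 0.

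Notum (ENSMUSG00000042988, chromosome 11, 120653788 to 120661175, minus strand) encodes a secreted enzyme that removes the lipid Wnt ligands need for receptor binding. It had 83 counts at each time in shControl, 107 and 77 for shNFIB, and 40 and 112 for shMLL1. The 2 shMLL1 libraries were the lowest (1.33 CPM) and the highest (4.59 CPM), on either side of the other 4. In shMLL1 Notum was 3.46-fold higher at day 7 (log2 ratio 1.79, interval 1.26 to 2.35), against a log2 ratio of 0.07 (-0.39 to 0.52) in shControl and -0.38 (-0.82 to 0.06) in shNFIB. Against shControl it was at -0.97 (-1.55 to -0.41) in shMLL1 at day 0 and 0.75 (0.33 to 1.18) at day 7. No fit called Notum. The antisense genes Notumos and Myadml2os share 708 and 210 exon bases with it and had at most 16 and 9 counts.

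Wif1 (ENSMUSG00000020218, chromosome 10, 121033960 to 121100650, plus strand) encodes another secreted protein that binds Wnt ligands. It had 3 counts in shMLL1 at day 0 and 0 in the other 5 libraries, so no difference was detectable at this depth.

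The Dickkopf genes were low. Dkk1 (ENSMUSG00000024868, chromosome 19, 30545863 to 30549665, minus strand), whose product blocks the co-receptors Lrp5 and Lrp6, had 0 counts in all 6 libraries. Dkk2 (ENSMUSG00000028031, chromosome 3, 132085292 to 132180304, plus strand), also a ligand of these co-receptors, had 0 and 1 counts in shControl, 12 and 2 in shNFIB, and 16 and 9 in shMLL1. Both shMLL1 libraries and the day 0 library of shNFIB were above both shControl libraries, while shNFIB at day 7 was within 3 counts like shControl. With the shControl count of day 0 set to the limit of 3, Dkk2 was 4.05-fold higher in shNFIB and 5.65-fold higher in shMLL1. Fitted over both days, the log2 differences were 3.31 (SE 1.42, adjusted p = 0.405) and 4.52 (SE 1.33, adjusted p = 0.313), and neither passed in edgeR. Leaving out 1 library moved them between 1.67 (without shControl at day 0) and 6.13 (without shControl at day 7) in shNFIB, and between 2.96 and 7.39 in shMLL1 without the same libraries.

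Dkk3 (ENSMUSG00000030772, chromosome 7, 112116017 to 112159057, minus strand), a divergent member of the family, had 29 and 25 counts in shControl, 74 and 43 in shNFIB, and 18 and 22 in shMLL1. Both shNFIB libraries were the highest. The log2 ratio of shNFIB to shControl was 1.37 (interval 0.73 to 2.04) at day 0 and 0.83 (0.08 to 1.60) at day 7, with a fitted 1.09 (SE 0.53, adjusted p = 0.463, edgeR) that did not pass.

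Among the intracellular inhibitors, the Naked cuticle genes, whose products bind Dishevelled, were highest in shControl at day 7. Nkd1 (ENSMUSG00000031661, chromosome 8, 88521354 to 88594884, plus strand) rested on 14 counts for shControl at day 0 and 84 at day 7, 0 and 2 for shNFIB, and 1 and 5 for shMLL1. At each time the shControl library was above both knockdown libraries. Both shNFIB libraries were within 3 counts, so their order cannot be read. Nkd1 was 6.29-fold higher at day 7 in shControl (log2 ratio 2.65, interval 1.83 to 3.58). In shMLL1 the log2 ratio was 2.63 (-0.53 to 8.19), from 5 against 1 counts.

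In the fit over the 3 lines Nkd1 was called higher with time, with a log2 fold change of 2.68 (SE 0.70, adjusted p = 0.0254, edgeR). Read line by line, the rise was clear of counting error in shControl alone. The call was lost without the shControl library of day 0 (adjusted p = 0.217) or of day 7 (adjusted p = 0.325), and without the line as a replicate block (adjusted p = 0.230). Against shControl at day 7, Nkd1 was at a log2 ratio of -5.35 in shNFIB (-8.42 to -3.45) and -3.75 in shMLL1 (-5.41 to -2.47). At day 0 it was 4.61-fold lower in shNFIB, with the shNFIB count set to the limit of 3. In shMLL1 the log2 ratio at day 0 was -3.73 (-9.13 to -1.01), from 1 against 14 counts. The fitted differences over both days were -5.46 (SE 0.90, adjusted p = 0.0653) and -3.67 (SE 0.77, adjusted p = 0.153) in edgeR and did not pass.

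Nkd2 (ENSMUSG00000021567, chromosome 13, 73818534 to 73847631, minus strand) was counted 30 times in the day 7 library of shControl, 1 time in that of shNFIB and 0 times in the other 4 libraries. Only the shControl library of day 7 was above 3 counts. It was 10.5-fold higher there than at day 0, with the day 0 count set to the limit of 3. Against that day 7 library, shNFIB was at a log2 ratio of -4.86 (-10.21 to -2.27), from 1 against 30 counts. With its count set to the same limit, shMLL1 was 8-fold lower. Nkd2 was too low to enter the fit.

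The 250 bases before the RefSeq starts of Nkd1 (chr8:88527383-88527632, plus strand) and Nkd2 (chr13:73847632-73847881, minus strand), from RefSeq on GRCm38.p6, are shown because both genes peaked in the same library. Capitals again mark the motif TTGGC. The RefSeq start of Nkd1 lies inside the GENCODE gene.
Nkd1: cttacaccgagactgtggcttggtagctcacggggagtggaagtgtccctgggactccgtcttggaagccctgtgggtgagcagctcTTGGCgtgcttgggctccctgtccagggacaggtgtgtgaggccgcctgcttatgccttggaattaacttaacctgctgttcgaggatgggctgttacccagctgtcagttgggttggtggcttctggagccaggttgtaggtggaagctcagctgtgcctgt
Nkd2: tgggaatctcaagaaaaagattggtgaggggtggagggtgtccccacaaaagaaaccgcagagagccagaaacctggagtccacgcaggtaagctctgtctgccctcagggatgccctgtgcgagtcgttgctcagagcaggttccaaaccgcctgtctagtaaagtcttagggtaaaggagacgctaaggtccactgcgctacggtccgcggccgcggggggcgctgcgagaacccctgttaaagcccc
Nkd1 had a match beginning at position -163, and Nkd2 had none.

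Axin2 (ENSMUSG00000000142, chromosome 11, 108920349 to 108950783, plus strand), a scaffold of the β-catenin degradation complex and itself a known target of the pathway, had 8 and 25 counts in shControl, 11 and 13 for shNFIB, and 9 and 15 for shMLL1. The day 7 library was the higher in all 3 lines, and the 3 day 7 libraries were above the 3 of day 0. The log2 ratio was 1.71 in shControl (interval 0.52 to 3.07), 0.34 in shNFIB (-0.94 to 1.64) and 1.04 in shMLL1 (-0.24 to 2.42). The fitted day effect was 1.01 (SE 0.56, adjusted p = 0.196, edgeR) and did not pass.

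Of the 10 genes, 7 entered the fit and Nkd2, Wif1 and Dkk1 did not. For day 7 against day 0 over the lines, 1 member was called higher (Nkd1) and 0 lower, where 16.9% of all tested genes were called higher and 16.7% lower. At an unadjusted p under 0.05, 2 of the 7 members (28.6%) passed, against 47.0% of all genes. The median log2 change was -0.13 for the members and 0.00 for all genes. For shNFIB, 0 members were called higher and 1 lower (Sfrp2), against 0.113% and 0.305% of all genes. At an unadjusted p under 0.05, 2 of 7 passed, against 12.4% of all genes. For shMLL1, 0 members were called in either direction by edgeR, against 0.0119% higher and 0.0179% lower of all genes. There 3 of 7 passed an unadjusted p under 0.05, against 9.20% of all genes, and DESeq2 called 1 lower, Sfrp2. Both knockdown comparisons share the shControl libraries. The members were chosen with earlier results of these data known, so the shares of all genes describe the background and are no test.

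**Figure D3:**
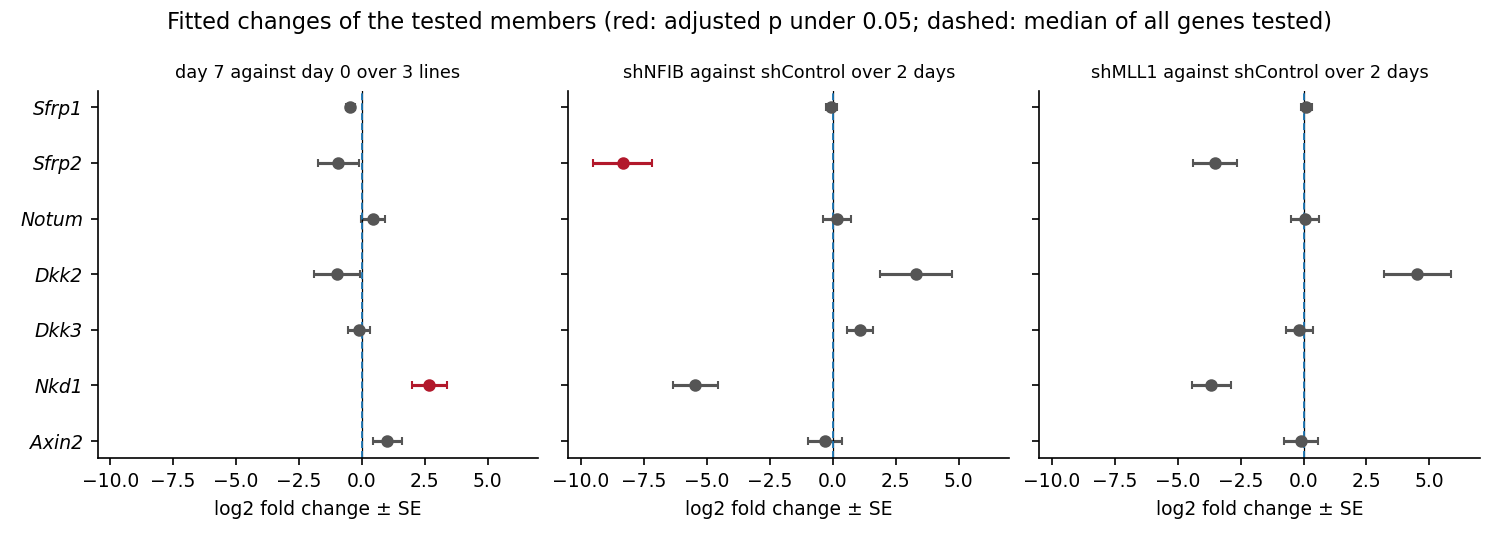
Fitted log2 fold change with its standard error for the 7 tested genes, for day 7 against day 0 and for each knockdown line against shControl. Red points passed an adjusted p of 0.05 (Nkd1 with time at 2.68, Sfrp2 in shNFIB at -8.35), and the dashed line is the median of all tested genes.

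Between single libraries, more members passed 2-fold with time in shControl than in shNFIB, a difference that was not tested. Part of it follows from the filter: Nkd1 and Nkd2 stayed under 10 counts in both shNFIB libraries and could not be called there. From day 0 to day 7, 3 members were higher and 1 lower among 7 with at least 10 counts in shControl, where 23.0% and 14.9% of all genes were. In shNFIB 0 were higher and 1 lower of 5, with 16.6% and 13.9% of all genes, and in shMLL1 3 were higher and 0 lower of 6, with 25.8% and 19.9%. Nkd1, Nkd2 and Axin2 were the 3 in shControl, and Sfrp2, Notum and Axin2 those in shMLL1. Nkd2 and Axin2 in shControl and Axin2 in shMLL1 reached 10 counts only at day 7, so they could be called only higher. Dkk2 in shNFIB and shMLL1 reached 10 counts only at day 0, so it could be called only lower.

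Against shControl at day 0, 2 members were higher and 2 lower of 7 in shNFIB, with 7.36% and 6.33% of all genes. At day 7 in shNFIB 0 were higher and 3 lower of 7, with 8.08% and 13.3%. The 3 were Sfrp2, Nkd1 and Nkd2. In shMLL1 1 was higher and 2 lower of 6 at day 0, with 11.1% and 9.40% of all genes, and 0 higher and 3 lower of 7 at day 7, with 8.59% and 7.16%. The 3 lower ones were also Sfrp2, Nkd1 and Nkd2. At each time both comparisons share 1 shControl library. Nkd1 at both times and Nkd2 at day 7 reached 10 counts only in shControl, so they could be called only lower. The same held for Sfrp2 against shNFIB. Dkk2 at day 0 reached 10 counts only in the knockdown lines, so it could be called only higher.

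**Figure D4:**
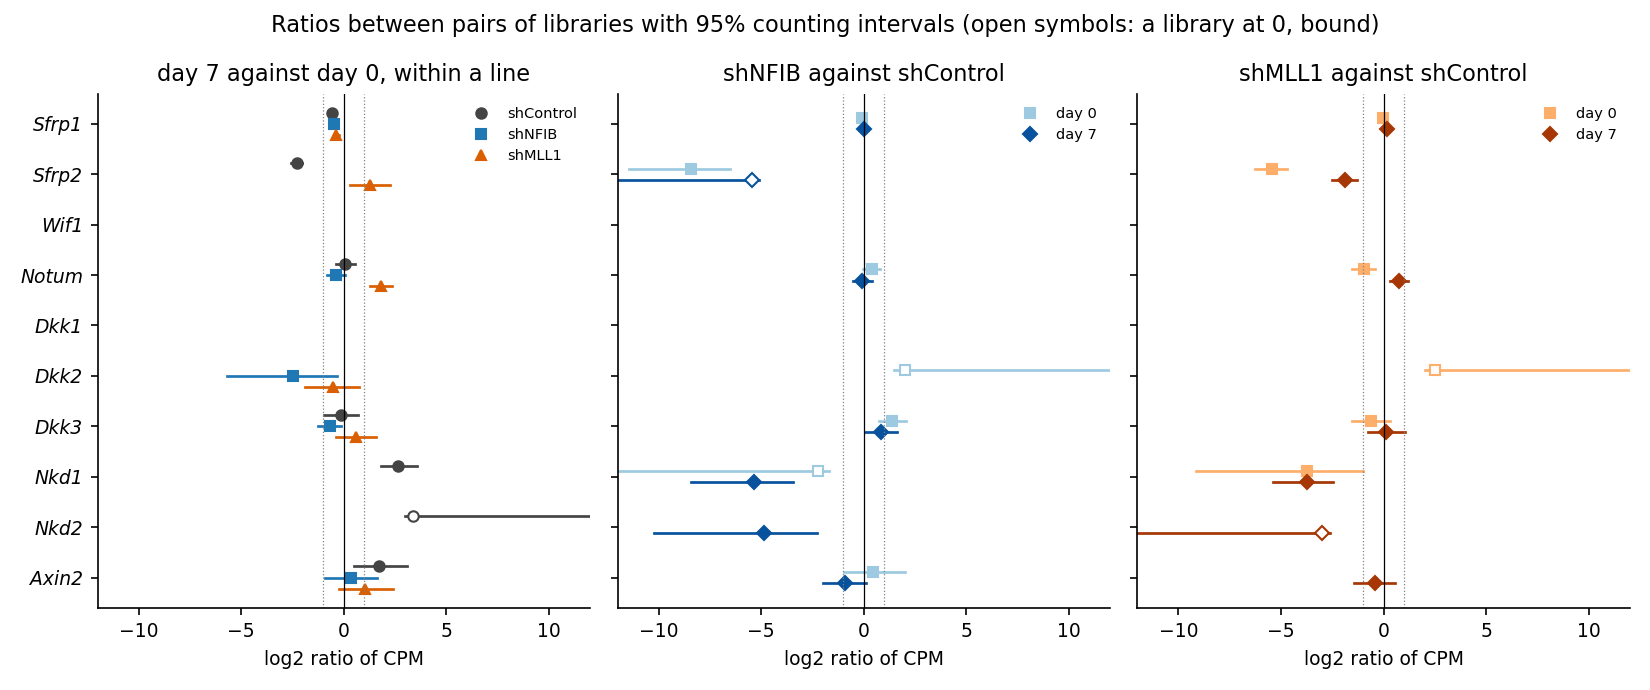
Log2 ratio of CPM between pairs of libraries with 95% counting intervals for genes with at least 10 counts in 1 of the pair; dotted lines mark 2-fold, open symbols are bounds against a library at 0, and intervals running off an axis have no finite end. Sfrp2 and Nkd1 lie left of the 2-fold line for both knockdown lines at both days, while Sfrp1 stays near 0.

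Differentiation markers moved beside these genes. The 8 osteoblast markers summed to 252 CPM at day 0 and 1503 at day 7 for shControl, against 251 and 272 for shNFIB and 263 and 346 for shMLL1. Most of the sum was Spp1, at 1381 CPM in shControl at day 7. Runx2 was also highest there, at 117 CPM against 30.4 in shNFIB and 35.3 in shMLL1 at day 7. Bglap and Sp7 were highest in that library too, on 13 and 7 counts. Dmp1 was at 0.492 CPM at day 7 in both shControl and shMLL1, on 15 and 12 counts, and Ibsp had no counts. Alpl and Phex had another order. Alpl, called higher with time as 1 of 5 tested, was at 3.64, 7.27 and 0.082 CPM at day 7 in shControl, shNFIB and shMLL1. Phex was at 0.82, 8.25 and 6.19 CPM. The 6 adipocyte markers summed to 32.0 and 120 CPM in shControl, 56.1 and 89.3 in shNFIB, and 15.6 and 27.7 in shMLL1. Of 5 tested, 4 rose with time, Cidec, Plin1, Lpl and Pparg. Cidec, a lipid droplet protein gene, had 681 counts in shControl at day 7, the library in which Nkd1 and Nkd2 peaked, against 5 in shNFIB and 17 in shMLL1. Of 10 mesenchymal markers, all tested, Pdgfra rose with time (log2 fold change 1.81, SE 0.48) and Vim (-1.13, SE 0.31) and Thy1 (-1.02, SE 0.20) fell, and Thy1 was also called higher in shNFIB (2.33, SE 0.25). Of 3 tested markers of other cells, Cd68 of macrophages rose with time (1.78, SE 0.30) and Cdh1 fell (-3.77, SE 0.44). The part of any marker list in the values of Nkd1, Nkd2 and Sfrp2 was not tested.

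Of 31 other inhibitors, 21 were tested, and 3 rose and 3 fell with time, near the background of 16.9% and 16.7%. Those that rose were Sfrp5, a further secreted Frizzled-related gene (log2 fold change 4.41, SE 1.08), Dact1, which acts on Dishevelled (2.22, SE 0.49), and Trabd2b, a protease that cleaves Wnt ligands (1.18, SE 0.32). The 3 that fell were Gsk3b, a kinase gene (-0.89, SE 0.22), Axin1, a scaffold gene related to Axin2 (-0.59, SE 0.18), and Apc (-0.58, SE 0.19). Other listed genes of the β-catenin degradation machinery were not called, such as Csnk1a1 (0.02, SE 0.23), Btrc (0.09, SE 0.19) and Gsk3a (-0.42, SE 0.18), which are named after their values were seen.

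Of 14 known Wnt target genes, 9 were tested, and 4 fell with time and 0 rose, with a list median of -1.41. Of all tested genes, 16.7% were called lower and 16.9% higher, with a median of -0.0047. The 4 were Ccn4 (-2.56, SE 0.26), Cd44 (-2.13, SE 0.32), Ccnd1 (-1.76, SE 0.26), a cyclin gene of the cell cycle, and Tcf7 (-1.65, SE 0.51), a TCF factor gene. The target list held none of the members, so its direction leaves them out. Among these, Axin2, itself a known target, was not called (1.01, SE 0.56), and Nkd1 was called higher with time (2.68, SE 0.70). Beside the same shares of all genes, 1 of 7 tested ligands (19 listed) rose and 0 fell, Wnt10b (1.89, SE 0.35). Among 13 tested of 15 receptors, 5 fell and 0 rose. The 5 were Fzd1 (-1.77, SE 0.20), Fzd8 (-1.45, SE 0.19), Fzd4 (-1.06, SE 0.22), Fzd2 (-0.73, SE 0.19) and Ryk (-0.66, SE 0.19). In edgeR 0 genes of these 4 lists were called for either knockdown line, in fits that called 70 and 5 genes in all. At an unadjusted p under 0.05, shNFIB had 3 of 21 other inhibitors, 3 of 9 targets, 2 of 7 ligands and 5 of 13 receptors, against 12.4% of all genes. For shMLL1 the counts were 4 of 21, 1 of 9, 2 of 7 and 5 of 13, against 9.20%. DESeq2 called 0, 1, 1 and 3 genes of these lists for shNFIB, of 615 in all, and 2, 1, 0 and 3 for shMLL1, of 410.

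Promoter windows of 300 bases were found in the RefSeq table for 7 of the 10 genes, but not for Sfrp1, Dkk3 or Notum. The short nuclear factor I motif TTGGC, searched on both strands, was in 3 of the 7 (Sfrp2, Nkd1 and Axin2), and in 46.7% of all 32851 promoters. The full nuclear factor I site, TTGGC and GCCAA separated by 5 bases, was in 0 of 7 and in 0.0365% of all. Any full site also holds the short motif. A TCF/LEF core, CTTTGAA or CTTTGAT or CTTTGTA or CTTTGTT, was in 1 of 7 (Dkk1, which had no counts) and in 16.9% of all promoters. A match describes these letters only and is no evidence of binding.

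**Figure D5:**
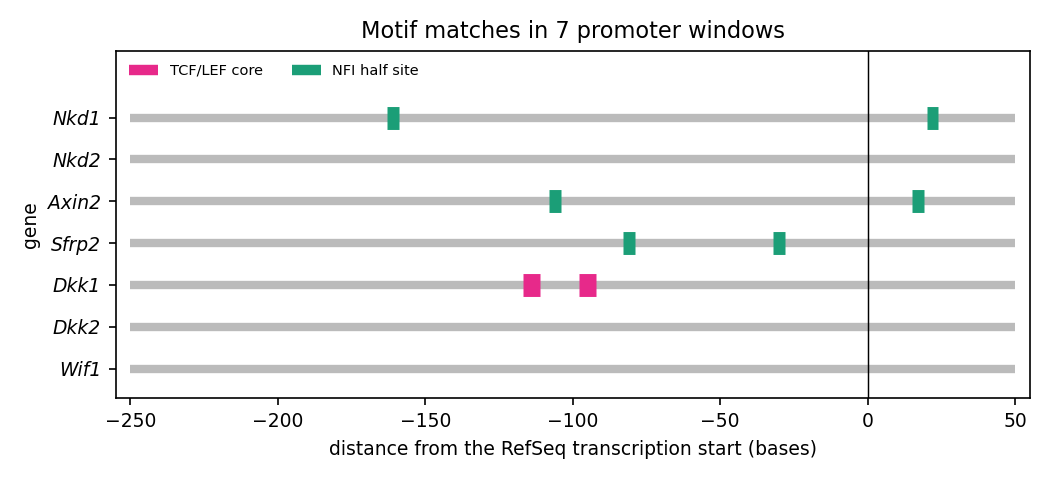
Positions of motif matches in 7 promoter windows, as distance in bases from the RefSeq start (vertical line), with 1 grey bar per gene. Short nuclear factor I motifs (green) occur in Nkd1, Axin2 and Sfrp2, and TCF/LEF cores (pink) in Dkk1 alone of the 7.

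For the 3 members with the widest range over the 6 libraries, the genes with the nearest pattern were found by the Euclidean distance of centred log2 CPM. Sfrp2 spanned 8.31 log2 units, and nearest to it were G0s2 (distance 2.32), Slc22a2 (2.56) and Wfdc18 (2.64). G0s2 had 316 and 243 counts in shControl, 0 and 1 in shNFIB, and 4 and 44 in shMLL1. Nkd1 spanned 5.39 log2 units, and nearest were Gabbr1 (1.24), Gm10000 (1.42) and Pik3ap1 (1.52). Gabbr1, a GABA receptor subunit gene, had 8520 counts in shControl at day 7 and between 308 and 1127 in the other 5 libraries. Dkk2 spanned 3.22 log2 units, and nearest were Lama5 (0.809), Me3 (1.02) and Gm16263 (1.09).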

How the data were processed

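Total RNA of 6 libraries was sequenced in pairs of reads. The values that the authors deposited are raw counts per gene, made with HTSeq 0.11.1 from alignments to GRCm38 (HISAT2 2.2.1, filtered by SAMtools 1.12) of reads trimmed by Trimmomatic 0.39. The annotation release and strand setting are not given in the sources used here. Positions came from GENCODE M21 (55141 of 55401 genes matched).

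CPM and ratios used TMM factors over all genes, and the fits TMM factors over the genes tested. The quasi-likelihood model of edgeR 4.0.16 (R 4.3.3), with terms for line and day, was fitted to the genes kept by filterByExpr, with 2 residual degrees of freedom. Libraries were paired by line, because the same cells gave both days. Deviations from the day means correlated at 0.424 in shControl, 0.423 in shNFIB and 0.269 in shMLL1 across genes. P-values measure only the spread between these libraries. Intervals used scipy 1.17.1 and figures matplotlib 3.10.9.

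Genes named were the 10 members, the hairpin targets and each gene of the other lists called in a fit. The 3 nearest patterns of the 3 members with the widest range were named too. Marker genes at or near 0, Cdh1, Cd68, Lyz2 and Pecam1 were named for the cell type check. The osteoblast markers Spp1, Runx2, Bglap, Sp7, Dmp1, Ibsp and Phex and the adipocyte marker Fabp4 were called in no fit and were named after their values were seen. The members and lists were chosen with earlier results of these data known. Alternatives were DESeq2 size factors, library size alone, no filter, the DESeq2 1.42.0 Wald test, no replicate block, each library left out, and a promoter window of 250 bases. The scripts were tested on simulated data. ChIP-seq data were not used here.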

Additional observations from a re-analysis of the deposited data

Results flagged for a closer look

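Sfrp2 moved in opposite directions with time in 2 lines, with a log2 ratio of day 7 to day 0 of -2.29 in shControl and 1.26 in shMLL1, each with a counting interval clear of 0. Each line had 1 library per time, and the difference between the lines was not tested.

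Notum in shMLL1 was on opposite sides of shControl at the 2 times, with a log2 ratio of -0.97 at day 0 and 0.75 at day 7, both with intervals clear of 0. This difference was not tested either.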

How the results depend on the processing

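The fall of Sfrp2 in shNFIB passed under all 10 alternatives, with log2 fold changes from -10.89 to -6.61 and adjusted p from 2.98e-08 to 0.0458 (edgeR or DESeq2). With no filter on low counts, 2 members were called higher with time. Without the replicate block 0 were, and this was the only call of a member that the block changed. With no filter, 341 genes were higher and 347 lower in shNFIB (members lower: 2), and 236 and 290 in shMLL1 (members lower: 2). With DESeq2 the numbers were 297 and 318 in shNFIB (members lower: 2) and 177 and 233 in shMLL1 (members lower: 1). With all libraries and edgeR they were 19 and 51, and 2 and 3. With library size alone the day effect of Dkk3 turned to 0.017. Nkd1 in shNFIB passed with no filter (adjusted p = 0.00115), with DESeq2 (0.00271) and without either shMLL1 library (0.00357 and 0.00813). In shMLL1 Nkd1 passed with no filter (0.0175) and without the shNFIB library of day 7 (0.044), and Sfrp2 in 4 of 10 alternatives, its adjusted p ranging from 0.000623 to 0.851.

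Leaving out each library in turn gave 1240 to 2718 genes higher and 1296 to 2934 lower with time, with 0 to 2 members higher and 0 to 1 lower. For shNFIB it gave 16 to 649 higher and 66 to 516 lower, with 1 to 2 members lower. For shMLL1 it gave 10 to 375 higher and 32 to 345 lower, with 0 to 2 members lower. Log2 fold changes that changed sign ranged from -2.36 to 0.62 (Sfrp2), -0.43 to 0.18 (Dkk3) and -0.16 to 0.89 (Notum) with time. In shNFIB they ranged from -0.11 to 0.017 (Sfrp1), -0.75 to 0.29 (Axin2) and -0.52 to 0.73 (Notum). In shMLL1 they ranged from -0.55 to 0.47 (Axin2), -0.68 to 0.29 (Dkk3) and -1.01 to 0.87 (Notum). The causes were not tested. The numbers of members past 2-fold and of members with a motif did not move under the alternatives run for them.

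With 1 library per condition, a ratio between libraries has no replicate check, and a knockdown effect that differs between days enters the error of the fit. Genes with 3 counts or fewer, which Wif1 and Dkk1 were throughout, cannot be compared at this depth. Reads are not independent molecules, so intervals cover counting error only.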

Other observations

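Frzb, Fzd9, Sostdc1, Apcdd1 and Fzd3 were chosen after their values were seen, and belong to the lists of other inhibitors and receptors (Apcdd1 also to the targets). Frzb, a secreted Frizzled-related gene like Sfrp1 and Sfrp2, was counted 103 times at day 0 and 30 times at day 7 for shControl, 6 and 18 for shNFIB, and 7 and 7 for shMLL1. Fzd9, a Frizzled receptor gene, had 383 and 153 counts in shControl, 13 and 23 in shNFIB, and 13 and 20 in shMLL1. Sostdc1, another secreted inhibitor gene, had 18 and 2 counts in shControl and 0 in the 4 knockdown libraries. For Frzb and Fzd9, both shControl libraries were above all 4 knockdown libraries. Frzb and Fzd9 did not pass for either knockdown line in edgeR (adjusted p = 0.343 and 0.0782 for shNFIB, 0.335 and 0.106 for shMLL1), and Sostdc1 was too low to be tested. Others of these lists went the other way. Apcdd1, a membrane inhibitor gene, had 47 and 25 counts in shControl, 54 and 25 in shNFIB, and 220 and 126 in shMLL1 (adjusted p = 0.099 for shMLL1, edgeR). Fzd3, another receptor gene, had 25 and 22 counts in shControl, 138 and 129 in shNFIB (adjusted p = 0.0847, edgeR), and 43 and 52 in shMLL1. Tcf7, which fell with time, had 267 and 41 counts in shControl, 12 and 9 in shNFIB, and 99 and 29 in shMLL1.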
